A study of Mus musculus with 9 samples.

Results

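The troponin genes encode the subunits of the calcium switch of the striated muscle thin filament. All 8 genes of the family that the array annotation lists were followed: the troponin I genes Tnni1, Tnni2 and Tnni3, the troponin T genes Tnnt1, Tnnt2 and Tnnt3, and the troponin C genes Tnnc1 and Tnnc2. The members were every probe set annotated to one of these symbols, which gave 12 of the 45101 probe sets on the array and 8 of the 18193 genes measured. Tnni2 and Tnnt2 had 3 probe sets each, the other genes had 1 each, and no probe set with several gene symbols named a troponin.

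Troponin C binds calcium, troponin I holds the actin filament off until calcium arrives, and troponin T ties the complex to tropomyosin. Each subunit has paralogues with preferred tissues: Tnni1, Tnnt1 and Tnnc1 serve slow skeletal muscle, Tnni2, Tnnt3 and Tnnc2 serve fast skeletal muscle, and Tnni3, Tnnt2 and Tnnc1 serve the adult heart. The embryonic heart uses Tnni1 and changes to Tnni3 around and after birth, so this pair is widely read as a sign of how mature a cardiomyocyte is.

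The study asked how far cardiomyocytes made from stem cells mature in a dish. The cells came from a single mouse embryonic stem cell line (synp, made from R1 cells of a 129X1 x 129S1 background), in which the Ncx1 promoter drives PAC, a puromycin resistance gene. Differentiation used the cytokines FGF10, bFGF, VEGF, BMP4 and Activin A, and all cultures had puromycin from day 7 to remove cells that were not cardiomyocytes. RNA was taken at day 10, day 20 and day 30 and hybridised to 9 one-colour arrays, 3 per day. As labelled, the groups differ in days of culture and, with them, in time since puromycin was started. These cannot be told apart. There was no heart tissue or unselected culture among the samples. The labels do not say whether the 3 arrays of a day came from separate cultures, so p-values only reflect how far these samples spread, and part of that spread may be technical.

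The values are log2 signals with 1 value per probe set and array, and all of them lay between 2.77 and 14.52. The array medians differed by at most 0.075. The number of arrays limits the precision, and the signal of one probe set cannot be set against that of another as an amount of RNA. Of 14 cardiomyocyte markers, all had a mean above the median gene (6.63), and their summed signal, given as log2, was 16.06 to 16.71 on day 10 and 16.54 to 16.62 on day 30. The skeletal muscle regulators Myod1 (mean 4.99), Myog (4.75), Myf5 (3.13) and Myf6 (3.67) were below the median gene. They come from a list of 24 skeletal muscle genes, of which 5 were above it, among them Myl1 (10.43) and Ckm (9.17). The summed signal of that list was 10.53 to 11.94 on day 10 and 12.22 to 13.08 on day 30. Of 12 fibroblast and matrix genes, 11 rose from day 10 to day 30, against 11.2% of all genes, and their summed signal went from 12.72 to 13.46 on day 10 to 16.48 to 16.72 on day 30. In such bulk samples, fewer cells of a type and less RNA per cell cannot be told apart.

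Of the 8 troponin genes, Tnni3 was the one whose difference between a pair of days passed the test. Its signal was 7.23-fold higher on day 30 than on day 10, and most of that difference was already present on day 20. Tnni1, the embryonic counterpart, was bright on every array and differed by -0.12 in log2 signal between day 30 and day 10, with a 95% interval of -0.40 to 0.15. The other heart genes, Tnnt2 and Tnnc1, were bright throughout and differed by 0.12 and 0.10 between these days. The fast skeletal genes Tnni2, Tnnt3 and Tnnc2 were below the median gene on average. Between day 10 and day 30, 1 of 8 troponin genes passed the test, against 21.1% of all genes (11.2% rose and 9.92% fell). The test was limma with Benjamini-Hochberg adjustment over all 18193 genes and a threshold of 0.05.

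**Figure D1:**
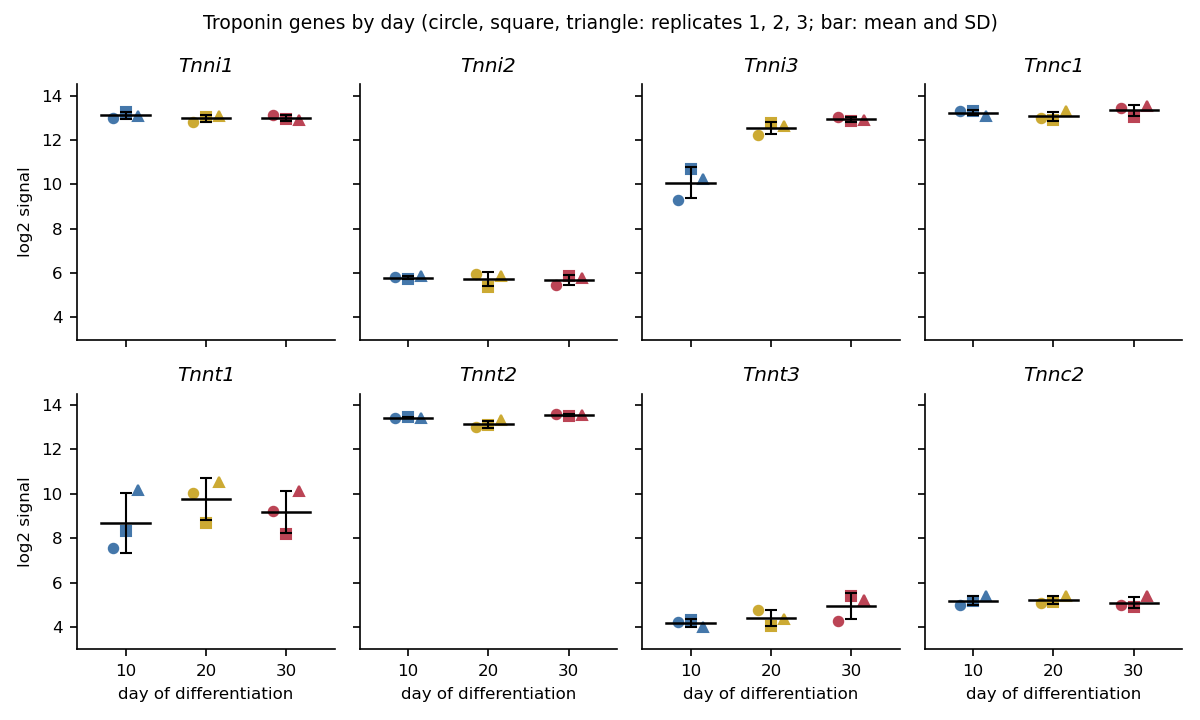
Each panel plots the log2 signal of 1 troponin gene (its brightest probe set) against day of differentiation, with circles, squares and triangles for replicates 1, 2 and 3 and a bar for the mean and SD of 3 arrays. Tnni3 climbs from a mean of 10.08 to 12.93, Tnnt1 is scattered on every day, and Tnnt3 goes from a mean of 4.17 to 4.95 with replicate 1 of day 30 among the day 10 values.

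Tnni3 encodes cardiac troponin I, the form of the adult heart. Its signal (probe set 1422536_at) was 9.30, 10.67 and 10.25 on day 10, 12.22, 12.74 and 12.62 on day 20, and 13.04, 12.85 and 12.90 on day 30. The arrays of the 3 days did not overlap: every day 20 array was above every day 10 array, and every day 30 array was above every day 20 array. The day means were 10.08 ± 0.70, 12.53 ± 0.28 and 12.93 ± 0.10 (SD, n = 3), so the spread between arrays was widest on day 10.

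From day 10 to day 20 Tnni3 rose by 2.45 in log2 signal (SE 0.31, 95% interval 1.73 to 3.17, adjusted p = 0.0034), or 5.47-fold. It was 1 of 8 troponin genes called in that interval, against 14% of all genes (7.3% rose and 6.69% fell). From day 10 to day 30 it rose by 2.85 (SE 0.31, 95% interval 2.13 to 3.57, adjusted p = 0.00088). That placed it above 98.9% of all genes, with 206 genes showing a larger increase. Between day 20 and day 30 the difference was 0.40 (95% interval -0.32 to 1.12, adjusted p = 0.72) and did not pass the test. The probe set was brighter than 98.7% of probe sets, and what so bright a signal does to these differences was not tested. The second interval was smaller than the first by 2.05, with an adjusted p of 0.16, so a slowing of the increase was not called. It passed with arrays weighted by quality (-1.73, adjusted p = 0.043). Leaving out any single array kept both called differences, at 2.07 to 2.75 for day 20 and 2.47 to 3.15 for day 30.

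The promoter of Tnni3 is shown because this is the member called between pairs of days. That of its chromosomal neighbour Tnnt1 is set beside it because that gene was not called. Both are the 250 bases before the annotated start, from RefSeq (GRCm38.p6, minus strand), 5′ to 3′ on the gene's strand, with motif matches in capitals. The table held such windows for 6 of the 8 genes, 8 windows in all, and none for Tnni2 and Tnnt3.
Tnni3, chr7:4522529-4522778: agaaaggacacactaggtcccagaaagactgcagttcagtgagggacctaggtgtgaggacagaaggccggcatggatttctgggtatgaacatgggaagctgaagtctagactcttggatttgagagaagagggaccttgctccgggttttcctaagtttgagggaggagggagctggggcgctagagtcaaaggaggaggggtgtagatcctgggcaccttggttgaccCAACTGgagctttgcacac
Tnnt1, chr7:4515976-4516225: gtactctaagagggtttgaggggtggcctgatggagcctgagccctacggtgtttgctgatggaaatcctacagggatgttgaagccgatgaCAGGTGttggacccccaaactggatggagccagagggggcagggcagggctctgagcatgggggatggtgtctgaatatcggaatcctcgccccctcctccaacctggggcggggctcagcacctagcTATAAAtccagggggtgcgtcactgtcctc

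The motifs searched, on both strands and without overlaps between them in these windows, were those of factors known to act on muscle promoters. They were the GATA core GATAA, the M-CAT element CATTCC, the E-box CANNTG, the TATA box TATAAA, the MEF2 element (TA, any 4 bases of A or T, TA) and the CArG box. Among 32851 windows of this length in the table, 22.6% held the GATA core, 12.6% the M-CAT element, 66.2% an E-box, 12.4% the TATA box, 8.56% the MEF2 element and 1.47% the CArG box. The Tnni3 window held 1 match, an E-box beginning 19 bases before the start. The Tnnt1 window held an E-box and a TATA box, the latter beginning 30 bases before the start. A match is a run of letters and not a measured binding site.

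Tnni1 encodes slow skeletal troponin I, which the embryonic heart also uses. Its signal (1450813_a_at) was 12.99, 13.28 and 13.07 on day 10, 12.81, 13.04 and 13.07 on day 20, and 13.14, 12.93 and 12.91 on day 30. The 3 days overlapped in every pairing. The difference between day 20 and day 10 was -0.14 (95% interval -0.42 to 0.13, adjusted p = 0.47) and that between day 30 and day 20 was 0.021 (adjusted p = 0.97). The probe set was brighter than 99.7% of probe sets on the array, and what a signal so near the top of the range does to a difference was not tested.

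The promoter of Tnni1 is given as the counterpart of the Tnni3 window, and that of Tnnt2 as the heart gene that was bright from day 10 on. Both lie on the plus strand of the same chromosome and build, with motif matches in capitals.
Tnni1, chr1:135799171-135799420: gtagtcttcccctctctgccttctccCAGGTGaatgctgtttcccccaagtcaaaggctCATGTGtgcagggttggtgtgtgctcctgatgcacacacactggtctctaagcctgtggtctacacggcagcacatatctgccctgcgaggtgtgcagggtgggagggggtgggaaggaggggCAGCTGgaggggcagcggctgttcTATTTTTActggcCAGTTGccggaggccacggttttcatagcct
Tnnt2, chr1:135836084-135836333: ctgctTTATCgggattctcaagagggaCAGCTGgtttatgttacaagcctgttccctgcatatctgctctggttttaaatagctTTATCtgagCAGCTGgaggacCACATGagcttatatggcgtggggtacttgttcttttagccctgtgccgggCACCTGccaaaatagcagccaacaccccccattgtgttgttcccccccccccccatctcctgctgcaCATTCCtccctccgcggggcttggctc

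The table holds a second window for each of these genes. The Tnni1 window shown held a MEF2 element, TATTTTTA, beginning 44 bases before the start, with E-boxes on either side. The Tnnt2 window shown held 7 matches: 2 of the GATA core on the opposite strand, 4 E-boxes, and an M-CAT element beginning 27 bases before the start. The second Tnnt2 window, at chr1:135836739-135836988, held 1 match, an E-box, and the second Tnni1 window, which overlaps the first, held 3. The GATA core was searched for and not found in the windows of Tnni1, Tnni3 and Tnnt1, which says only that these letters are absent from those 250 bases.

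The shift between the troponin I paralogues was followed within each array as the log2 signal of Tnni3 minus that of Tnni1. Only its change has a meaning, since the signals of different probe sets are not on a shared scale. The difference was -3.69, -2.61 and -2.82 on day 10, -0.59, -0.29 and -0.45 on day 20, and -0.098, -0.075 and -0.014 on day 30. The 3 days did not overlap, and the day 30 arrays lay closest together. Between day 30 and day 10 Tnni3 rose by 2.85 and Tnni1 differed by -0.12. The movement is therefore mostly the Tnni3 rise on the same arrays and not separate support for it.

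The mean difference moved by 2.98 from day 10 to day 30. Over all 3 days, the exact permutation F test (280 splits of 9 arrays) gave p = 0.0036, the smallest this design can give. After Benjamini-Hochberg adjustment over the 5 paralogue pairs tested it was 0.018. The p-values in this paragraph are for any difference among the 3 days, not for day 30 against day 10 alone. None of the other 4 pairs passed. Tnni2 against Tnni1 moved by 0.027 (exact permutation p = 0.97), and Tnnt3 against Tnnt2 moved by 0.67 (exact permutation p = 0.27, adjusted 0.40). Tnnc2 against Tnnc1 moved by -0.20, and by -0.38 from day 20 to day 30 (exact permutation p = 0.17, adjusted 0.40).

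**Figure D2:**
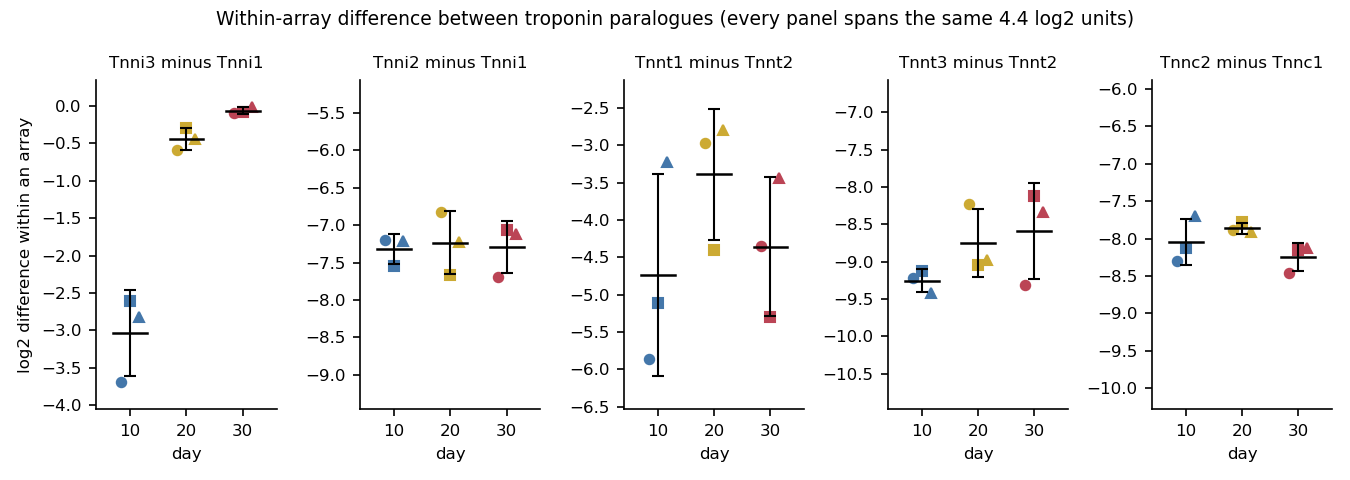
Each panel plots, by day, the within-array log2 difference between a pair of troponin genes, with circles, squares and triangles for replicates 1, 2 and 3 and a bar for the mean and SD of 3 arrays. The offset of a panel has no meaning and only movement within it does: Tnni3 minus Tnni1 moves from -3.04 to -0.063, and the arrays of different days overlap in the panel of Tnnt1 minus Tnnt2.

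Tnni2 encodes fast skeletal troponin I. Its brightest probe set (1438609_x_at) gave 5.80, 5.73 and 5.86 on day 10, 5.98, 5.37 and 5.85 on day 20, and 5.45, 5.86 and 5.79 on day 30. All 3 days overlapped, and day 30 differed from day 10 by -0.10 (95% interval -0.49 to 0.30, adjusted p = 0.75). Its other probe sets, 1416889_at and 1438608_at, had means of 5.48 and 3.70 and differed by 0.0023 and -0.059 between day 30 and day 10. The _x_at suffix marks probes that may also match related transcripts.

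Tnnt2 encodes cardiac troponin T, the subunit that ties the complex to tropomyosin in the heart. Its brightest probe set (1424967_x_at) gave 13.42, 13.45 and 13.40 on day 10, 13.01, 13.09 and 13.32 on day 20, and 13.59, 13.49 and 13.54 on day 30. Every day 20 array was below every day 10 array, and every day 30 array was above both other days. The means were 13.42 ± 0.027, 13.14 ± 0.16 and 13.54 ± 0.046 (SD, n = 3).

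Over the 3 days together Tnnt2 passed limma's F test with an adjusted p of 0.046, and with Tnni3 it made 2 of 8 troponin genes, against 17.5% of all genes. No single interval passed: day 20 minus day 10 was -0.28 (95% interval -0.50 to -0.063, adjusted p = 0.089) and day 30 minus day 20 was 0.40 (95% interval 0.18 to 0.62, adjusted p = 0.17). The call over all days was lost with each probe set tested on its own (adjusted p = 0.056) and on leaving out any of 7 of the 9 arrays, which gave adjusted p-values of 0.076 to 0.14. It held without replicate 3 of day 10 (0.042) and without replicate 3 of day 20 (0.027). Its signal stands above that of 99.9% of probe sets, and the part of that brightness in the small differences was not tested.

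The other probe sets of Tnnt2 showed the same order in part. The second bright one (1418726_a_at) gave 13.31, 13.38 and 13.29 on day 10, 13.02, 13.21 and 13.35 on day 20, and 13.44, 13.48 and 13.48 on day 30. Here the day 30 arrays were again the highest, and day 20 overlapped with day 10. The F test did not pass (adjusted p = 0.21 over all probe sets).

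The third Tnnt2 probe set, 1440424_at, was built from an expressed sequence tag and was dim, with a mean of 6.12. It gave 6.50, 6.10 and 7.44 on day 10, 6.12, 5.20 and 5.44 on day 20, and 6.84, 5.47 and 5.99 on day 30. Its arrays overlapped between all days, and day 20 minus day 10 was -1.10 (95% interval -2.11 to -0.078, adjusted p = 0.17). Using it, or the mean of all 3 probe sets, turned the sign of the Tnnt2 difference between day 30 and day 10 to -0.58 and -0.11.

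Tnnt1 encodes slow skeletal troponin T and is transcribed from the gene next to Tnni3 on chromosome 7. Its signal (1419606_a_at) was 7.56, 8.34 and 10.16 on day 10, 10.03, 8.70 and 10.52 on day 20, and 9.24, 8.20 and 10.11 on day 30. Replicate 3 was the highest array on every day, and all 3 days overlapped. The spread within days (SD 1.09) was larger than that of 99.5% of genes, whose median was 0.18.

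Against that spread, Tnnt1 differed by 1.06 between day 20 and day 10 (95% interval -0.70 to 2.82, adjusted p = 0.41) and by 0.50 between day 30 and day 10 (95% interval -1.27 to 2.26, adjusted p = 0.71). The first of these intervals is wide enough to hold a change as large as that of Tnni3. The day 20 difference was 0.50 without replicate 1 of day 10 and 1.80 without replicate 3 of day 10. Without replicate 1 of day 10, the day 30 difference became -0.070. Within arrays, Tnnt1 minus Tnnt2 was -4.73 ± 1.35 on day 10, -3.39 ± 0.88 on day 20 and -4.36 ± 0.93 on day 30 (SD, n = 3; exact permutation p = 0.32, adjusted 0.40).

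Among the gene lists, the 14 cardiomyocyte markers and 24 skeletal muscle genes also had their highest summed signal in replicate 3 every day. The cardiomyocyte sums were 16.71, 16.69 and 16.62, and the skeletal sums were 11.94, 12.51 and 13.08. On day 30 the cardiomyocyte sum of replicate 1 was 16.61, close to that of replicate 3. Of these 24 genes, 5 had a mean above the median gene, among them the light chain gene Myl1 (10.43), the muscle creatine kinase gene Ckm (9.17), the calsequestrin gene Casq1 (8.39) and the myosin binding protein gene Mybpc1 (7.09). The myogenic regulator Pax7 had a mean of 4.12. The part of other muscle cell types in the Tnnt1 spread was not tested.

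Tnnt3 encodes fast skeletal troponin T. Its signal (1450118_a_at) was 4.20, 4.33 and 3.97 on day 10, 4.78, 4.05 and 4.34 on day 20, and 4.27, 5.38 and 5.21 on day 30. Replicates 2 and 3 of day 30 were the highest, while replicate 1 of that day overlapped with day 10. The difference between day 30 and day 10 was 0.79 (95% interval 0.10 to 1.47, adjusted p = 0.10) and was not called. Without replicate 1 of day 30 it was 1.13 and passed (adjusted p = 0.017). The probe set was brighter than 30.1% of probe sets.

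Tnnc1 encodes the troponin C shared by heart and slow muscle, and is the calcium sensor of the complex. Its signal (1418370_at) was 13.30, 13.30 and 13.09 on day 10, 12.98, 12.92 and 13.31 on day 20, and 13.44, 13.05 and 13.51 on day 30. The 3 days overlapped, and day 30 differed from day 10 by 0.10 (95% interval -0.25 to 0.46, adjusted p = 0.69). From day 20 to day 30 the difference was 0.26 (95% interval -0.093 to 0.62, adjusted p = 0.61).

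Tnnc2 encodes fast skeletal troponin C. Its signal (1417464_at) was 5.0, 5.18 and 5.39 on day 10, 5.10, 5.13 and 5.40 on day 20, and 4.99, 4.90 and 5.38 on day 30. Its days overlapped too, with a day 30 difference of -0.10 (95% interval -0.47 to 0.27, adjusted p = 0.73).

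Counted over the family, the median difference between day 30 and day 10 was 0.11 for the 8 troponin genes and -0.027 for all genes. Tnni3 and Tnnt2 were the genes whose arrays did not overlap between day 30 and day 10, 2 of 8 against 36.1% of all genes. Between day 20 and day 10 the same count was 2 of 8 against 31.8%, and between day 30 and day 20 it was 2 of 8 against 21.4%. From day 20 to day 30, 0 of 8 were called by limma, against 0.335% of all genes, and 1 had an unadjusted p under 0.05. For the later minus the earlier change 0 of 8 were called by limma, against 0.478%, and 2 had an unadjusted p under 0.05.

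Over the 12 probe sets tested among 45037, 1 was called between day 30 and day 10, against 15.1% of all probe sets, and 1 between day 20 and day 10, against 9.02%. Both calls were those of Tnni3.

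**Figure D3:**
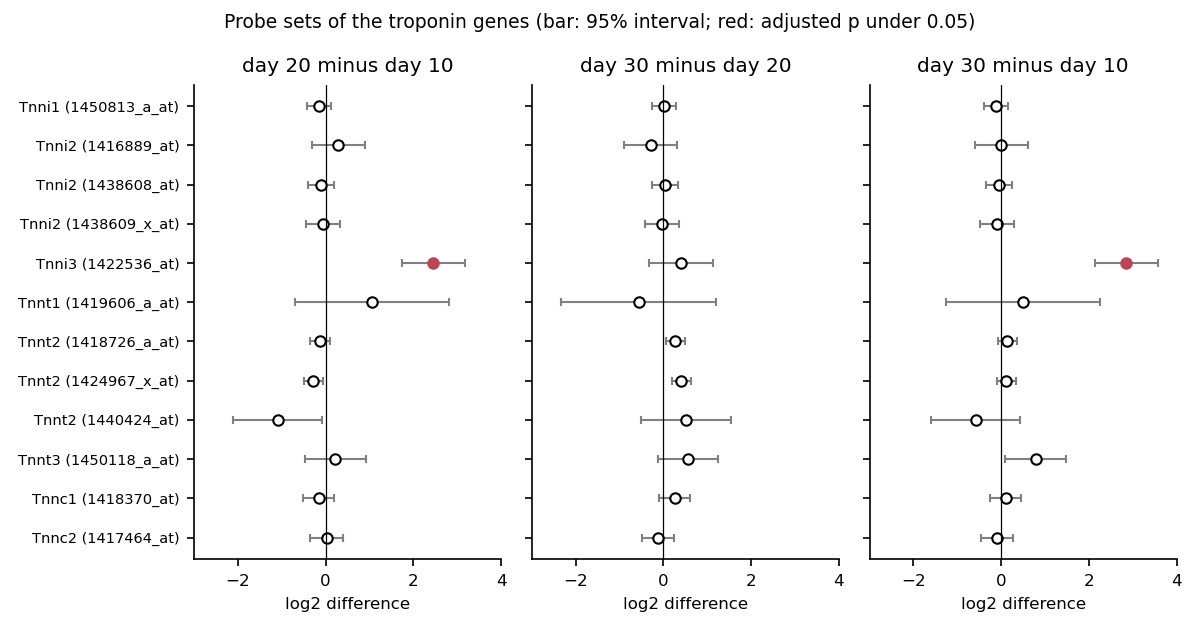
The log2 difference of each of the 12 troponin probe sets is plotted for 3 pairs of days, with bars for the 95% interval from the limma fit of 9 arrays and red points for an adjusted p under 0.05. Tnni3 is the single red point, at 2.45 and 2.85, and the interval of Tnnt1 is the widest.

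Troponin sits on a filament of actin and tropomyosin, and 18 genes of that filament and its capping proteins were read beside it. Between day 30 and day 10, 2 rose and 2 fell, against 11.2% and 9.92% of all genes, with a median of -0.036. Lmod2, a leiomodin that lengthens thin filaments in heart, rose by 2.66 (SE 0.41, adjusted p = 0.0034), close in size to Tnni3. Its signal went from a mean of 6.60 on day 10 to 8.66 on day 20 and 9.25 on day 30, and it also rose in the first interval by 2.06 (adjusted p = 0.015). Tmod4, a skeletal muscle tropomodulin that caps the pointed end of actin, rose by 1.02 (adjusted p = 0.011).

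The genes that fell were Acta2, smooth muscle actin, at -1.04 (adjusted p = 0.014), and Neb, the nebulin of skeletal muscle, at -0.43 (adjusted p = 0.047) and a mean of only 3.34. The Neb call held in 1 of 9 fits without single arrays (without replicate 3 of day 10, with adjusted p up to 0.13 in the others). The Acta2 call was lost with the mean of its probe sets (-1.24, adjusted p = 0.090) and with the most variable one (-1.93, adjusted p = 0.076). Actc1, the cardiac actin on which troponin acts, differed by 0.014 (95% interval -0.19 to 0.22, adjusted p = 0.94). Acta1, the skeletal actin that the fetal heart also uses, differed by -1.15 (95% interval -2.41 to 0.11, adjusted p = 0.18). Tpm1, the main cardiac tropomyosin and the docking site of troponin T, differed by 0.31 (95% interval 0.080 to 0.53, adjusted p = 0.062).

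Tmod2 and Actg2 differed by -0.79 (adjusted p = 0.076) and 1.60 (adjusted p = 0.084). Actg2, an enteric smooth muscle actin, rose by 2.57 from day 10 to day 20 (adjusted p = 0.023). In that interval 2 of the 18 genes rose, the other being Lmod2, and none fell, against 7.3% and 6.69% of all genes (limma; 8 had an unadjusted p under 0.05). From day 20 to day 30, 0 of 18 were called by limma, against 0.335% of all genes, and 1 had an unadjusted p under 0.05. The number called between day 30 and day 10 depended on the arrays and the weighting, at 3 to 6 without single arrays and 8 with arrays weighted by quality.

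**Figure D4:**
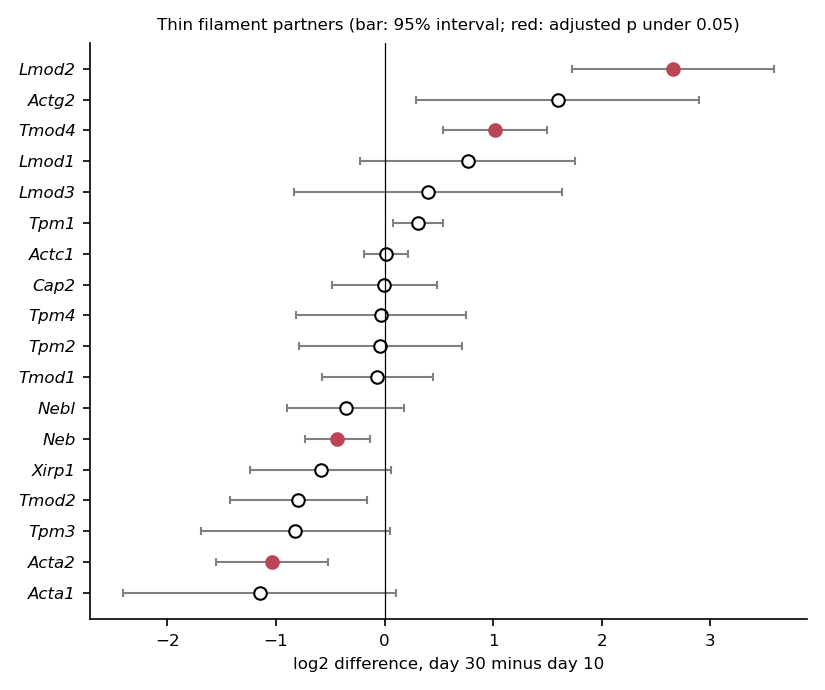
The log2 difference between day 30 and day 10 is plotted for 18 thin filament genes, with bars for the 95% interval and red points for an adjusted p under 0.05. Lmod2 and Tmod4 lie to the right, Acta2 and Neb to the left, and Actc1 and Tmod1 are close to 0.

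Of 12 genes whose enzymes modify or degrade troponins, 5 rose and 2 fell between day 30 and day 10, against 11.2% and 9.92% of all genes, with a median of 0.29. Prkaca, the catalytic subunit of the protein kinase A that phosphorylates cardiac troponin I on adrenergic stimulation, rose by 0.98 (adjusted p = 0.0026). It had risen by 1.01 on day 20 (adjusted p = 0.0045), with a mean of 10.48 on day 10 and 11.46 on day 30. Prkcd, a protein kinase C, rose by 0.97 (adjusted p = 0.014). Another protein kinase C gene, Prkce, fell by 0.98 (adjusted p = 0.017), and Prkd1, protein kinase D, fell by 0.93 (adjusted p = 0.016). The others that rose were the calpain gene Capn1 by 0.51 (adjusted p = 0.017), Tnni3k, a kinase named for binding cardiac troponin I, by 1.77 (adjusted p = 0.039), and Prkca, a protein kinase C, by 0.74 (adjusted p = 0.047). On leaving out single arrays, Prkaca was called in 9 of 9 fits, Prkcd in 8, Prkce in 7, Prkd1 and Capn1 in 6, and Tnni3k and Prkca in 1 (both without replicate 2 of day 10). The mean of a gene's probe sets ended the calls of Prkcd (adjusted p = 0.054), Capn1 (0.19) and Prkca (0.11), the most variable probe set that of Prkce (0.052), and array weights that of Tnni3k (0.94, adjusted p = 0.12).

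Of 15 transcription factor genes known from muscle and cardiac troponin promoters, 3 rose and none fell, against 11.2% and 9.92% of all genes, with a median of -0.14. Mef2a, whose protein binds the MEF2 element, rose by 1.30 (adjusted p = 0.0045) and was already higher on day 20, by 1.47 (adjusted p = 0.0052). The thyroid hormone receptor genes Thra and Thrb rose by 1.16 (adjusted p = 0.019) and 0.65 (adjusted p = 0.0070), although Thrb was dim, with a mean of 5.31 on day 30. The call of Thra was lost with only the days compared in the fit (adjusted p = 0.055) and without replicate 1 or 2 of day 30 (0.064 and 0.061). Tead1, whose protein binds the M-CAT element, differed by -0.71 (adjusted p = 0.070).

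The genes whose profile over the 9 arrays was nearest to that of Tnni3 were chosen by the root mean square difference after each gene was centred on its own mean, among genes whose highest day mean exceeded the median gene. They were Hhatl (0.251), Rbfox1 (0.262), Nfib (0.268), Nfia (0.289) and Trdn (0.320), where the profile of Tnni3 itself had a root mean square of 1.31. Rbfox1 is a splicing regulator of heart, muscle and brain, Nfia and Nfib are transcription factors of the nuclear factor I family, and Trdn encodes triadin of the junctional sarcoplasmic reticulum. Their differences between day 30 and day 10 were 2.88, 2.80, 2.60, 2.44 and 2.23 in the order named. Being chosen for likeness, they are a description of the same rise and not a test of it.

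**Figure D5:**
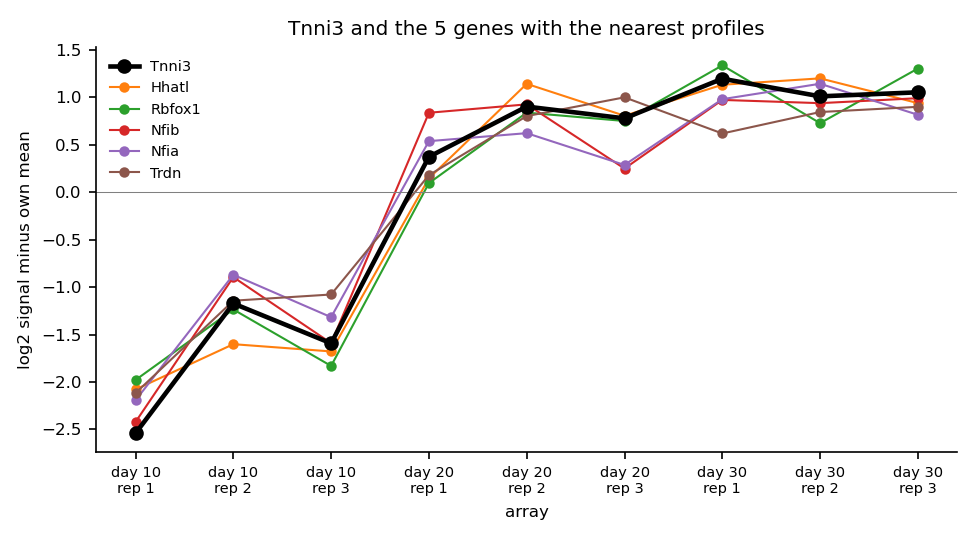
Log2 signal minus each gene's own mean is plotted over the 9 arrays for Tnni3 (thick black line) and the 5 genes with the nearest profiles, with lines joining arrays only to guide the eye. All 6 genes are lowest on the day 10 arrays, where replicate 1 of Tnni3 reaches -2.54, and stay above 0 on days 20 and 30.

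For Tnnt2, whose own profile had a root mean square of 0.187, the nearest genes were Pex7 (0.0789), Chrac1 (0.0935), Afg1l (0.0978), Coq4 (0.0990) and Wdr7 (0.0993). Their day 30 means lay 0.26 to 0.41 above those of day 20. None of these 5 genes was called between day 30 and day 10 or between day 20 and day 10 (adjusted p of 0.096 or more).

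Marker genes of the cell types that such cultures can hold were read beside the Tnni3 rise. Of 14 cardiomyocyte markers, 1 rose between day 30 and day 10, against 11.2% of all genes: Cmya5, a Z-disc gene, by 2.82 (adjusted p = 0.0033). Their median was 0.35. Myh6, the alpha myosin heavy chain gene, differed by 0.41 (adjusted p = 0.17), Tbx20 by 1.73 (adjusted p = 0.073) and the cardiac regulator Nkx2-5 by -0.46 (adjusted p = 0.19).

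Among fibroblast and matrix genes the median difference was 4.24, with Col1a1 at 6.28 (adjusted p = 0.00013), Col6a3 at 6.12 (adjusted p = 3.5e-05), Col5a2 at 3.90 (adjusted p = 0.00011) and Thy1 at 3.69 (adjusted p = 0.00014). Of 7 proliferation genes measured, 4 fell, against 9.92% of all genes, with a median of -2.0: Mcm2 at -2.23, Bub1 at -3.04, Top2a at -2.26 and Cdk1 at -1.91 (adjusted p of 0.010 to 0.048). On leaving out single arrays, Mcm2 was called in 9 of 9 fits, Bub1 in 5, Top2a in 3 and Cdk1 in 1, while averaging the probe sets of a gene gave -1.99 for Bub1, still called, and -1.18 for Top2a (adjusted p = 0.054). Their summed signal was 12.04 to 13.85 on day 10 and 11.50 to 12.14 on day 30. The part of these lists in the Tnni3 rise was not tested.

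Of 24 skeletal muscle genes, 2 rose and 1 fell between day 30 and day 10, against 11.2% and 9.92% of all genes. They were Ckm, also expressed in heart, by 6.05 (3.26 with the mean of its probe sets; adjusted p = 4e-05), the perinatal myosin gene Myh8 by 2.07 (adjusted p = 0.0061) and the fast light chain gene Mylpf, which fell by 1.08 (adjusted p = 0.0067). Mybpc2, a fast muscle gene, differed by 1.73 (adjusted p = 0.069). The list's summed signal was 10.53 to 11.94 on day 10 and 12.22 to 13.08 on day 30, and its part in the Tnni3 rise was not tested.

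Of 10 smooth muscle genes, 2 rose and 3 fell, against 11.2% and 9.92% of all genes. Pdgfrb rose by 3.15 (adjusted p = 0.0066) and Smtn by 1.16 (adjusted p = 0.023), while Cnn1 fell by 2.75 (adjusted p = 0.0042), Synpo2 by 1.59 (adjusted p = 0.020) and Acta2 as given above. On leaving out single arrays, Synpo2 and Smtn were called in 6 of 9 fits, both losing the call without replicate 2 of day 10, replicate 1 of day 30 or replicate 3 of day 30. Synpo2 also lost it with the most variable probe set (adjusted p = 0.15) and with only the days compared (0.052).

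Of 8 endothelial genes, 1 rose and 1 fell, against 11.2% and 9.92% of all genes. Eng rose by 1.04 (adjusted p = 0.035) and Kdr fell by 1.13 (adjusted p = 0.016), while Cldn5 and Tie1 differed by -0.30 (adjusted p = 0.090) and -0.93 (adjusted p = 0.10). Eng was called in 4 of 9 fits without single arrays (adjusted p of 0.012 to 0.11) and not with only the days compared (0.061). Kdr was called in 7 of 9, losing the call without replicate 2 of day 10 (0.052) or replicate 1 of day 30 (0.060).

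RNA quality was read from control probe sets. The 3′ minus 5′ signal of Actb was 0.34 ± 0.14, 0.47 ± 0.12 and 0.52 ± 0.24 on days 10, 20 and 30 (SD, n = 3; exact permutation p = 0.49), and that of Gapdh gave an exact permutation p of 0.77. The mean of 24 control probe sets for added poly-A RNA was 5.52 ± 0.62, 6.40 ± 0.25 and 6.05 ± 0.16 (SD, n = 3; exact permutation p = 0.079). It was lowest in replicates 2 and 3 of day 10, at 5.24 and 5.09, while Tnni3 was lowest in replicate 1 of that day. The part of these controls in the Tnni3 rise was not tested.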

How the data were processed

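The authors deposited a log2 signal for each probe set on each array. Per the labels' protocols, total RNA in TRIzol was amplified from the 3′ end and labelled with biotin. Normalization is not given in the sources used here, and the log base was inferred from the range of the values. Probe sets were named from the platform annotation (34945 with 1 symbol, 932 with several), and a gene was represented by its brightest probe set. Under R 4.3.3, limma 3.58.1 fitted a mean per day over 9 arrays (eBayes, 6 residual degrees of freedom), and tests were two-sided, with Benjamini-Hochberg adjustment over 18193 genes, or 45037 probe sets without array controls, at a threshold of 0.05. Intervals are 95% limits of that fit. Paralogue differences were tested by exact permutation of the F statistic. The procedures were checked on simulated data.

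Members and the 9 gene lists were chosen with earlier results of these data known. Named were all troponin probe sets, 3 thin filament genes chosen by name (Actc1, Acta1, Tpm1) and the next 6 by adjusted p, 4 of each other list by adjusted p, the 4 brightest skeletal genes and 5 nearest profiles. Myod1, Myog, Myf5, Myf6, Pax7, Tmod1, Smtn, Capn1, Tnni3k and Prkca were added after their values were seen. Alternatives covered normalization, probe set choice, filters on dim genes, weights, a replicate block and each array left out. Scanner files were not used here, so probe sets were not judged against background.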

Additional observations from a re-analysis of the deposited data

Results flagged for a closer look

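Among the troponin genes and those named from the lists, 3 changed differently from day 20 to day 30 than from day 10 to day 20. They passed limma's test of that difference, which called 0.478% of all genes, and none of them is a troponin. Most list genes were named by their adjusted p between day 30 and day 10, which favours large changes. The muscle creatine kinase gene Ckm rose by 5.44 in the first interval and differed by 0.61 in the second, a gap of -4.83 (adjusted p = 0.016). The collagen gene Col6a3 rose by 5.76 and then differed by 0.37, a gap of -5.39 (adjusted p = 0.014). Col5a2, another collagen gene, rose by 3.34 and then differed by 0.56, a gap of -2.78 (adjusted p = 0.048). The gaps of these 3 genes were not examined under other processing or without single arrays. In all 3 genes the day 20 arrays were above the day 10 arrays without overlap, where 31.8% of all genes did not overlap in either direction. Tnni3 had a gap of -2.05 that did not pass (adjusted p = 0.16).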

How the results depend on the processing

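With 3 arrays a day, small differences of bright and dim probe sets are weakly resolved, and signal over background could not be judged. The Tnni3 calls for days 20 and 30 against day 10 kept their direction and side of the threshold under every alternative run. The count of troponin genes called over all days was 1 instead of 2, without Tnnt2, under median centring, the mean or the most variable probe set of a gene, each probe set on its own, both filters on dim genes and the replicate block. With array weights, 2 troponin genes passed for the later minus the earlier change, Tnni3 (-1.73, adjusted p = 0.043) and Tnnt2 (0.65, adjusted p = 0.037). Thin filament calls numbered 4 as reported, 2 with only genes above the median signal, where 14 were measured, and 8 with array weights. Signs of small differences turned for Tnni2 between day 20 and day 10 (0.042 with the mean and 0.29 with the most variable probe set) and between day 30 and day 10 (0.0023 with the latter). They also turned for Tnnt2 between day 30 and day 10 (-0.11 and -0.58), for Tnni2 minus Tnni1 (-0.0099 with quantile normalization), Tpm1 (-0.063 with the mean), Myh6 (-0.37 with the most variable probe set) and Mybpc1 (0.28 with array weights). The causes were not tested.

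Leaving out single arrays gave 1 to 2 troponin genes called over all days (without day 30 replicate 1, Tnni3 and Tnnt3), 1 to 2 genes and 1 to 2 probe sets between day 30 and day 10 (the second, Tnnt3, without day 30 replicate 1), and 3 to 6 thin filament genes. It gave changes of -0.089 to 0.23 for Tnni2 minus Tnni1 and -0.19 to 1.13 for Tnnt1 minus Tnnt2. Between day 30 and day 10 the range was -0.037 to 0.061 for Actc1, -0.74 to 0.73 for Mybpc1, -0.24 to 0.0034 for Tnnc2, -0.18 to 0.031 for Tnni2 and -0.070 to 1.23 for Tnnt1. Between day 20 and day 10 it was -0.077 to 0.12 for Tnnc2 and -0.19 to 0.12 for Tnni2, and between day 30 and day 20 it was -0.062 to 0.069 for Tnni1 and -0.21 to 0.094 for Tnni2.

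Whether replicate numbers pair the arrays was not settled. The mean of each day was first subtracted from every gene. Correlations of same-numbered arrays were then -0.15 to 0.43. Among the arrays of other days, 7 of 9 arrays correlated best with one of their own number. With the replicate block, the Tnni3 differences kept their calls (adjusted p = 0.0020 and 0.0060), Tnnt2 over all days had an adjusted p of 0.082, Bub1, Cdk1, Neb, Tnni3k and Top2a lost their calls, and Tbx20 and Tead1 gained one. The permutation of days within replicate number left the change of Tnni3 minus Tnni1 at 2.98, with an adjusted p of 0.14 over all days. So few orders exist within numbers that a single pair, without low p-values in other pairs, cannot pass the threshold after adjustment.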

Other observations

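The troponin genes lie in pairs in the mouse genome. In the RefSeq gene order of GRCm38.p6, Tnni3 and Tnnt1 are neighbours on chromosome 7, Tnni2 and Tnnt3 flank Lsp1 on the same chromosome, and Tnni1 and Tnnt2 flank Lad1 on chromosome 1. Tnnc1 is on chromosome 14 and Tnnc2 on chromosome 2. This order was looked up after the values had been seen.

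The nearest protein-coding genes that are not troponins and were measured numbered 11. Between day 30 and day 10, 0 of 11 were called by limma, against 21.1% of all genes, and 4 had an unadjusted p under 0.05. Between day 20 and day 10, 0 of 11 were called, against 14%, and 1 had an unadjusted p under 0.05. Ppp1r12c, which borders Tnnt1 on the side away from Tnni3, differed by 0.17 between day 30 and day 10 (adjusted p = 0.38), and Tnnt1 itself by 0.50. Lad1, between Tnni1 and Tnnt2, differed by -0.50 (adjusted p = 0.071), and Lsp1, between Tnni2 and Tnnt3, by 0.95 (adjusted p = 0.082). The widest difference was that of Ube2c, a mitotic ubiquitin-conjugating enzyme next to Tnnc2, at -2.52 (adjusted p = 0.068), where Tnnc2 differed by -0.10.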
